A study of Homo sapiens with 4 samples.

Results

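The 10 genes described here encode fibronectin (FN1) and the proteins of microfibrils and elastic fibres around it, namely the fibrillins FBN1 and FBN2, the fibulins FBLN1, FBLN2, FBLN5, EFEMP1 and EFEMP2, elastin (ELN) and the microfibril-associated protein MFAP5. They were chosen by gene symbol, and 10 of the 19475 symbols in the deposited expression table carry these names. Where a symbol had several transcripts, the one with the highest mean FPKM stood for it, and all 10 transcript rows of FN1 were also examined. RNA-seq was run on SKOV3, a cell line established from a human ovarian cancer. A pair of libraries was made from cells on the tissue culture plate (TCP), labelled day 0, and a pair from tumor spheroids on plates coated with polymer X, a polymer thin film, labelled day 8. Substrate and culture time changed together between these groups and cannot be told apart. The labels give all 4 libraries 1 growth protocol with serum replacement, whereas the methods maintain SKOV3 in fetal bovine serum, so it is uncertain which medium the TCP cells were in. The methods speak of independent replicates for all experiments in general, at a minimum above the 2 libraries per group here, and do not say whether these libraries came from separate cultures. The p-values measure the spread between these libraries.

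Fibronectin is a secreted dimeric glycoprotein that cells stretch into fibrils through integrins, chiefly integrin α5β1, which binds its Arg-Gly-Asp (RGD) sequence. Fibrillins form microfibrils that hold latent TGF-β and serve as the scaffold for elastin, while fibulins bridge elastin, microfibrils, basement membranes and the enzymes that cross-link them. In ovarian cancer, fibronectin of the mesothelium and stroma is known as an attachment matrix for tumor cells and their spheroids.

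The RGD codons are shown first because they mark which of these proteins carry the minimal integrin-binding sequence. In the longest annotated protein of each gene (GENCODE 29, GRCh38, matched by RefSeq accession for 10 of 10 genes), RGD was found in 5 genes, once each in FN1, FBN1, FBLN5 and MFAP5 and at 2 places in FBN2. Those of FN1 lie at chr2:215384063-215384071, those of FBN1 at chr15:48468056-48468064 and those of FBLN5 at chr14:91937158-91937166, all on the minus strand and within a single coding exon. The first set of FBN2 lies at chr5:128345385-128345393 and the second at chr5:128312749-128312757, both on the minus strand. In MFAP5 the codons span the junction of exons 3 and 4 (chr12:8655829-8660869, minus strand). Each sequence below is 39 bases of coding sequence, with the RGD codons in capitals.
FN1: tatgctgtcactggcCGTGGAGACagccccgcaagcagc
FBN1: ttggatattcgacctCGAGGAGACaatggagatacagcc
FBN2, first: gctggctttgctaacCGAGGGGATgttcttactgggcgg
FBN2, second: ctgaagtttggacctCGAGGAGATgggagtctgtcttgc
FBLN5: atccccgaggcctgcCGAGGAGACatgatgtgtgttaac
MFAP5: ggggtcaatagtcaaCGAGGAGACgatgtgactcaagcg

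The values are FPKM, in which the tags of a transcript are divided by its length and by the size of the library. The smallest steps between values put the libraries at 38402000 to 44912000 tags. Replicates correlated at 0.998 on TCP and 0.997 on polymer X, and differed by more than counting error. Of the ovarian epithelial markers, 5 of 10 were at an FPKM of at least 1 in every library, with KRT8, KRT18, PAX8 and ERBB2 high. KRT19, WT1 and MUC16 (CA125) were under 1 in all of them, MUC16 under 0.1, and EPCAM passed 1 only on polymer X. Endothelial markers were under 1 for 5 of 5 genes in every library, and so were 4 of 5 leukocyte markers, the exception being CD68. Of 9 fibroblast markers, 2 (COL1A1 and COL1A2) reached 1 in every library, 5 stayed under 1, and TCF21 was listed at 0 in all. Their summed FPKM was 17.1 and 17.8 on TCP and 63.6 and 57.5 on polymer X, with COL1A2, DCN and COL3A1 making up most of the difference. COL1A1 was on the other side, at 8.21 and 8.48 on TCP and 3.81 and 3.77 on polymer X, and so was THY1, at 0.139 and 0.184 on TCP and 0.049 and 0 on polymer X. Their part in the results below was not tested.

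Fibronectin transcript rose on polymer X, and the fibrillin, fibulin and microfibril genes split around it. FN1 and EFEMP2 (fibulin-4) were called higher on polymer X, FBN1, EFEMP1 (fibulin-3) and MFAP5 were called lower, and FBLN1, FBLN2 and FBLN5 were not called. FBN2 and ELN were not tested, since the filter asked for 2 or more libraries with an FPKM of 1 or above. Genes were called where limma gave an adjusted p under 0.05 and where log2(FPKM + 1) differed by 1 or more between the groups, a scale on which changes at low FPKM come out too small. Among the 11964 genes tested, 10.7% were called higher and 9.45% were called lower. Of the 8 tested genes of this group 2 were higher and 3 lower. With no fold change minimum, 3 were higher and 3 lower, beside 37.4% higher and 43.6% lower over all genes tested. Their median log2 fold change was 0.039, against -0.058 over all genes tested. This median and the 2 genes called higher include EFEMP2, which passed the filter only through the polymer X libraries, in which it was high. FPKM on TCP and on polymer X did not overlap for 6 of the 8 tested genes (75%), beside 90.4% of all genes tested. In bulk RNA, fewer cells that carry a transcript and less of it per cell cannot be told apart.

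**Figure D1:**
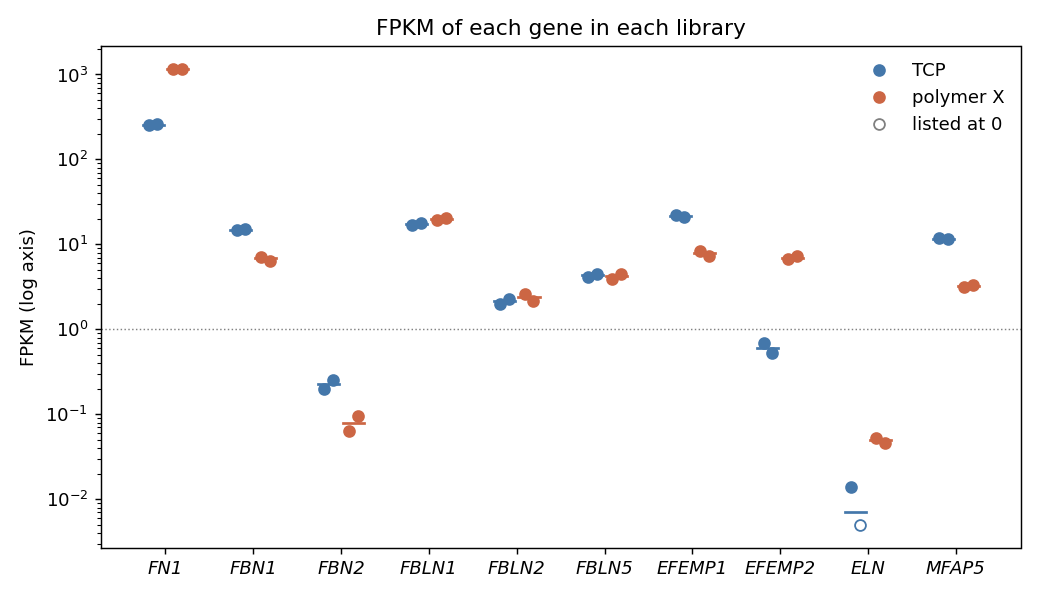
FPKM (log axis) of each of the 10 genes in each library, with TCP in blue, polymer X in orange, short lines for group means and a dotted line at an FPKM of 1. FN1 lies near 258 on TCP and 1168 on polymer X, EFEMP2 crosses the dotted line upward, FBN1, EFEMP1 and MFAP5 are lower on polymer X, and ELN is at the bottom, with an open symbol for the library listed at 0.

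FN1 (NM_001306131, hg19 chromosome 2, 216225163 to 216300793, minus strand, with the gene positions below also in hg19) had an FPKM of 253 and 263 in the TCP libraries and of 1167 and 1169 in the polymer X libraries. The polymer X libraries lay far above both TCP libraries and differed from each other by less than the TCP libraries did. The change was 4.53-fold, or 2.17 ± 0.065 (SE) on the log2 scale, with an adjusted p of 5.8e-09 from limma. Among all 19475 symbols FN1 ranked 150 and 128 by FPKM on TCP and 15 and 16 on polymer X. Its share of the FPKM summed over symbols was 0.081% and 0.087% on TCP and 0.419% and 0.430% on polymer X. The tested genes whose profile over the 4 libraries lay nearest to that of FN1 were KLHL24, MARCH9 and GSN, which encodes the actin-severing protein gelsolin, at Euclidean distances of 0.033, 0.042 and 0.045 on the centred log2 scale. In FPKM the change was 7.47-fold for KLHL24, 6.15-fold for MARCH9 and 4.57-fold for GSN, since this scale shrinks changes at low FPKM. Nearness over 4 libraries is given as a description.

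The study silenced FN1 with a pair of small interfering RNAs, which are shown because not every FN1 transcript holds their sites.
siFN1 #1: AGAUUUGGUUUGGGAUCAAUA
siFN1 #2: CGUGGUUGUAUCAGGACUUAU
Read as the sense strand, the first matches chr2:215361265-215361285 in the 3′ UTR (exon 47 of 47) and the second matches chr2:215379131-215379151 in coding exon 34, both in GRCh38 on the minus strand. Both sites are in 9 of the 10 FN1 transcripts of the table, and neither is in the short transcript NM_054034, which covers the 5′ part of the gene and ends in an intron.

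FN1 transcripts differ by the extra type III repeats EDB and EDA and by the variable region, whose first segment, CS1, carries the Leu-Asp-Val (LDV) sequence bound by integrin α4β1. EDB and EDA are spliced into cellular fibronectin and are left out of the plasma form made by hepatocytes. The coding sequences of the 3 segments are shown because the tags that fall on them can be counted separately. EDB is exon 25 (chr2:215392931-215393203), EDA is exon 33 (chr2:215380811-215381080) and CS1 is the first part of exon 40 (chr2:215372301-215372375) of the 47 exons of the transcript, in GRCh38 on the minus strand. Capitals mark the codons of the EDGIHEL sequence of EDA, a known site for integrins α4β1 and α9β1, and of LDV in CS1.
EDB: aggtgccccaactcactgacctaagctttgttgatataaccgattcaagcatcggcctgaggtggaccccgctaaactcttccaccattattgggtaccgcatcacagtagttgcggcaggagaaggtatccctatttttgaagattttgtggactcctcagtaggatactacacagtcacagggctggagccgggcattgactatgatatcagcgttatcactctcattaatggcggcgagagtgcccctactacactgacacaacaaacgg
EDA: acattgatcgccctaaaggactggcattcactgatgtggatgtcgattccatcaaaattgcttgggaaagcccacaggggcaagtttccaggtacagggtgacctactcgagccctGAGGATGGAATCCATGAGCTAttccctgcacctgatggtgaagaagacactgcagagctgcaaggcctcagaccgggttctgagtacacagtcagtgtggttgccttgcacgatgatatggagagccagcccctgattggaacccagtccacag
CS1: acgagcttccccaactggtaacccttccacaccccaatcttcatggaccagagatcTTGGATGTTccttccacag

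The 9 full-length FN1 transcripts gave nearly the same FPKM within each library, from 250 to 253 and from 260 to 263 on TCP and from 1136 to 1167 and from 1139 to 1169 on polymer X. Their change lay between 4.45-fold and 4.54-fold. These transcripts share almost all of their exons and therefore their tags, so they are not separate measurements. The short 5′ transcript NM_054034 had an FPKM of 281 and 290 on TCP and of 769 and 778 on polymer X, a 2.71-fold change and a log2 fold change of 1.44. Relative to NM_212474, one of the 2 full-length transcripts with none of the 3 segments and the reference for all densities here, the short 5′ transcript was at 1.11 in both TCP libraries and at 0.672 and 0.678 on polymer X. It was thus above the full-length transcript on TCP and below it on polymer X.

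To count the tags on a segment, rows were subtracted in pairs that differ by that segment alone inside their outermost exons. The rows of each EDB and EDA pair also differ slightly at the 5′ end, at hg19 position 216300791 or 216300793. On EDB there were 2288 and 2844 tags on TCP and 9613 and 10017 on polymer X, and a second pair of transcripts gave 2288, 2846, 9620 and 10025 tags for the same libraries. Per base, relative to NM_212474, EDB was at 0.867 and 0.887 on TCP and at 0.768 and 0.786 on polymer X. The density of EDB was slightly lower than that of the rest of the transcript in all 4 libraries, and somewhat more so on polymer X. Scaled to library size, EDB tags were 3.96-fold higher on polymer X.

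On EDA there were 2172 and 2547 tags on TCP and 6722 and 6646 on polymer X. Its density relative to NM_212474 was 0.833 and 0.803 on TCP and 0.543 and 0.527 on polymer X, and the second pair of transcripts gave 0.844, 0.815, 0.558 and 0.543. Both polymer X libraries thus lay under both TCP libraries, and the ratio of the group means was 0.655 and 0.663 with these pairs. Scaled to library size, EDA tags were 2.92-fold to 2.96-fold higher on polymer X, a smaller ratio than that of FN1 as a whole. A further estimate came from a pair of rows that hold the whole variable region and differ by both EDA and EDB (NM_212482 and NM_212476), with the EDB tags counted above then taken away. It gave higher densities, of 0.992 and 0.952 on TCP and 0.667 and 0.659 on polymer X, with a ratio of 0.682. The cause of the gap between this estimate and the others was not tested.

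CS1 differed in the opposite way. There were 694 and 780 tags on CS1 on TCP and 4512 and 4442 on polymer X, and its relative density was 0.957 and 0.886 on TCP and 1.31 and 1.27 on polymer X. The second pair of transcripts gave 0.915, 0.843, 1.26 and 1.21. Scaled to library size, CS1 tags were 6.26-fold to 6.29-fold higher on polymer X, a larger ratio than that of FN1 as a whole. For each of these segments the groups did not overlap. With 2 libraries in each group, the smallest two-sided p that an exact permutation test allows is 0.333, so these ratios are given without a test.

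**Figure D2:**
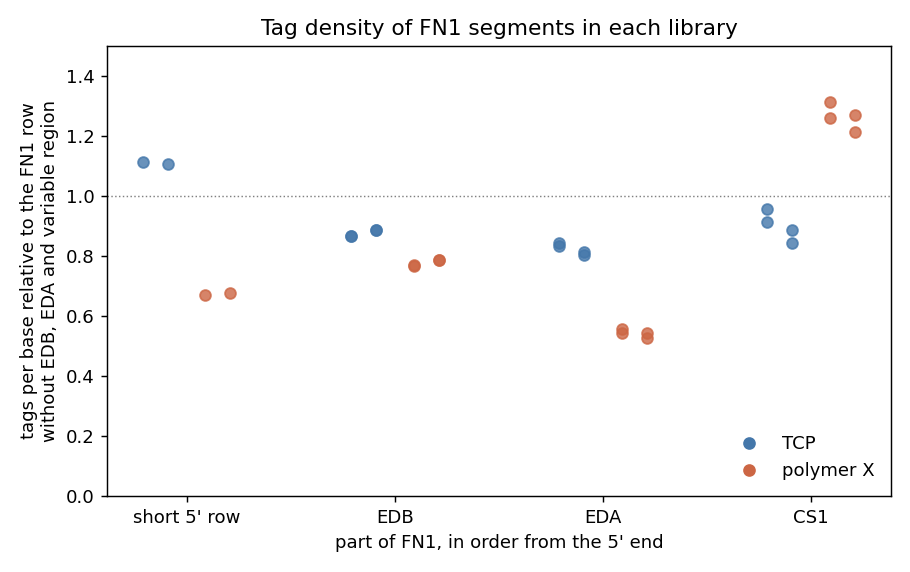
Tags per base of the short 5′ row, EDB, EDA and CS1 of FN1 relative to the FN1 transcript NM_212474, in each library, with TCP in blue and polymer X in orange. EDB, EDA and CS1 have a point for each pair of transcripts. On TCP the values lie between 0.803 and 1.11, while on polymer X the 5′ row and EDA are lowest and CS1 is highest.

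Rows that end early were lower in many other genes too. In 272 other genes, with rows kept from a mean FPKM of 5 upward, a short row began with the longest row of the gene and ended early, covering at most 0.5 of its length. Relative to the longest row, the FPKM of the short row shifted on polymer X by a median of -0.31 on the log2 scale (quartiles -0.49 and -0.12), and 243 of the 272 shifted downward. The shift of FN1, whose longest row has 8767 bases, was -0.72. In the 118 genes whose longest row had at least 5000 bases the median was -0.46, 114 shifted downward and 20 shifted at least as far as FN1, as did 27 of all 272. In most of these genes the early-ending row was thus lower, relative to the longest row, on polymer X. The part of such a shift in the lower 5′ row, the lower EDA and the higher CS1 of FN1 was not tested.

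**Figure D3:**
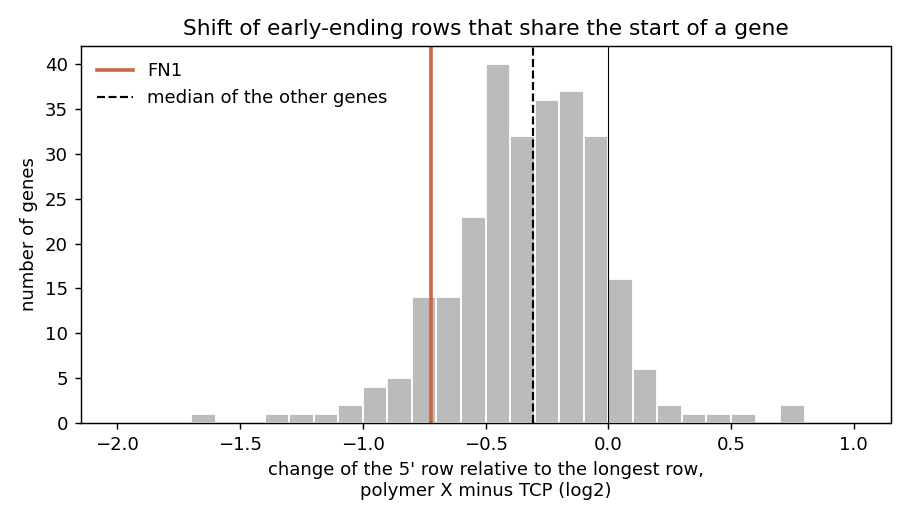
Number of genes by the change, polymer X minus TCP on the log2 scale, of an early-ending row relative to the longest row of the same gene. Most of the 272 other genes lie left of 0, with a median of -0.31 (dashed line), and FN1 lies further left, at -0.72 (orange line).

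The microfibril genes FBN1 and MFAP5 were lower on polymer X. FBN1 (NM_000138, chromosome 15, 48700503 to 48937985), the main fibrillin after birth and the gene mutated in Marfan syndrome, had an FPKM of 14.59 and 15.01 on TCP and of 7.20 and 6.45 on polymer X. It was 2.17-fold lower, with no overlap between the groups and a log2 fold change of -1.02 ± 0.069 (SE) with a limma adjusted p of 8.4e-07. This value lies at the limit for a call, and the call was lost at -0.94 under quantile normalization, -0.98 with a common median, -0.95 without polymer X replicate 2 and -0.996 without TCP replicate 2. The highest adjusted p from limma among these alternatives was 4.91e-05, so it was the fold change minimum that was missed.

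MFAP5 (NM_001297710, chromosome 12, 8798539 to 8815484), a small glycoprotein that binds fibrillin and active TGF-β, fell most of the 10 genes on this scale. Its FPKM was 11.8 and 11.5 on TCP and 3.19 and 3.36 on polymer X, a 3.55-fold decrease and a log2 fold change of -1.56 ± 0.067 (SE) with a limma adjusted p of 4.2e-08. Both polymer X libraries lay well under both TCP libraries. Over the 5 MFAP5 rows the log2 fold change lay between -1.57 and -1.55.

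FBN2 (NM_001999, chromosome 5, 127593601 to 127873735), the fibrillin of developing tissue, was low in every library, at an FPKM of 0.200 and 0.255 on TCP and 0.063 and 0.095 on polymer X. These values rest on 82 and 122 tags against 27 and 41. The ratio of tags scaled to library size, TCP over polymer X, was 2.91 (95% exact binomial interval 2.20 to 3.88, for counting error only). With no filter on low values its log2 fold change was -0.19 (adjusted p = 0.032 from limma).

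The fibulins went in different directions. EFEMP2 (NM_016938, chromosome 11, 65633912 to 65640405) encodes fibulin-4, which brings lysyl oxidase to elastin and is needed for elastic fibres to form. It had an FPKM of 0.684 and 0.531 on TCP, from 54 and 49 tags, and of 6.77 and 7.23 on polymer X. Of the tested genes, 3.91% to 5.02% were below it on TCP and 42.1% and 45.2% on polymer X. Genes under an FPKM of 1 in every library are not among the tested genes. The low place of EFEMP2 on TCP thus follows from the filter and is no separate result. The change was 11.5-fold in FPKM, and the log2 fold change on log2(FPKM + 1) was 2.32 ± 0.083 (SE) with a limma adjusted p of 1.4e-08. EFEMP2 passed the filter only through the polymer X libraries, in which it was high, and with no filter on low values the limma adjusted p was 0.0023. The counts take no account of strand, and EFEMP2 meets the gene MUS81 on the opposite strand at its 3′ end.

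EFEMP1 (NM_001039349, chromosome 2, 56093097 to 56151298) encodes fibulin-3, a glycoprotein of basement membranes and vessels. Its FPKM was 22.4 and 21.3 on TCP and 8.37 and 7.29 on polymer X, a 2.79-fold decrease and a log2 fold change of -1.37 ± 0.073 (SE) with a limma adjusted p of 1.7e-07. EFEMP1 and EFEMP2 encode fibulins of similar length, 493 and 443 residues, and were called in opposite directions. On TCP the FPKM of EFEMP1 was far above that of EFEMP2, at 21.8 ± 0.762 against 0.608 ± 0.108 (SD, n = 2). On polymer X it was 7.83 ± 0.764 for EFEMP1 and 6.998 ± 0.321 for EFEMP2, a gap of about the spread between the EFEMP1 libraries.

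FBLN1 (NM_001996, chromosome 22, 45898719 to 45959242), which encodes fibulin-1, a fibronectin-binding protein of matrix and plasma, had an FPKM of 16.8 and 17.9 on TCP and of 19.4 and 20.4 on polymer X. Both polymer X libraries were above both TCP libraries, but the difference was small. The log2 fold change was 0.19 (95% interval 0.050 to 0.33, adjusted p = 0.017 from limma), under the minimum for a call. With no filter on low values the limma adjusted p was 0.062. Leaving out 1 library at a time, the log2 fold change of FBLN1 ranged from 0.15 to 0.23. Under quantile normalization it was 0.38, above the 95% interval just given and still under the minimum for a call. The 4 FBLN1 rows end in different last exons. The rows of fibulin-1A and fibulin-1B held the same tags to within 9 in every library. Above the tags of fibulin-1A there were 164 and 215 tags for fibulin-1C on TCP and 233 and 251 on polymer X. For fibulin-1D there were 175 and 168 on TCP and 272 and 256 on polymer X. The density of the 1C end over that of the 1D end was 2.29 and 3.13 on TCP and 2.10 and 2.399 on polymer X, so the groups overlapped and no change in the mix of these forms was resolved.

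FBLN2 (NM_001998, chromosome 3, 13590625 to 13679922), which encodes fibulin-2, a binding partner of fibrillin-1 and of basement membrane proteins, had an FPKM of 2.00 and 2.27 on TCP and of 2.60 and 2.17 on polymer X. The groups overlapped, and the log2 fold change was 0.11 (95% interval -0.097 to 0.32, adjusted p = 0.288 from limma). FBLN5 (NM_006329, chromosome 14, 92335755 to 92414046), which encodes fibulin-5, a protein that joins elastin to microfibrils and binds integrins by its RGD, had an FPKM of 4.12 and 4.52 on TCP and of 3.96 and 4.46 on polymer X. The groups overlapped here too, with a log2 fold change of -0.031 (95% interval -0.21 to 0.15, adjusted p = 0.732 from limma). For both genes the interval leaves out a change of 1 on the log2 scale in either direction.

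ELN (NM_001278915, chromosome 7, 73442119 to 73484236), the gene of tropoelastin, was at the limit of detection. It had 2 and 0 tags on TCP and 8 and 7 tags on polymer X, an FPKM of 0.014 and 0 against 0.053 and 0.046. The ratio of tags scaled to library size was 7.74 with a 95% exact binomial interval from 1.80 to 69.8, for counting error only. Over its 13 rows the FPKM did not pass 0.057 in any library. Elastin transcript was therefore scarce in all 4 libraries, including those in which EFEMP2 rose.

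By order of FPKM on TCP, FN1 was highest, followed by EFEMP1, FBLN1, FBN1, MFAP5, FBLN5, FBLN2, EFEMP2, FBN2 and ELN. On polymer X the order was FN1, FBLN1, EFEMP1, EFEMP2, FBN1, FBLN5, MFAP5, FBLN2, FBN2 and ELN. On TCP the libraries of neighbouring genes did not overlap in FPKM. On polymer X those of EFEMP2 and FBN1 overlapped, and the EFEMP1 libraries lay just above both.

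The other genes of microfibrils and elastic fibres were taken as a list of 26, of which 14 passed the filter. ADAMTS17 passed it only through the polymer X libraries, in which it was higher, and was not called. LTBP1, LTBP3, LTBP4, LOX and ADAMTSL4 were called higher, ADAMTSL3 was called lower, and 8 were not called. Thus 35.7% were higher and 7.14% lower, with a median log2 fold change of 0.65, beside 10.7%, 9.45% and -0.058 over all genes tested. This list and that of receptors and assembly below were chosen with earlier results of these data known, so their shares are a description. LTBP1, LTBP3 and LTBP4 belong to the latent TGF-β binding proteins, which link the growth factor complex to fibrillin and fibronectin. LTBP1 had an FPKM of 13.4 and 13.2 on TCP and of 76.9 and 75.4 on polymer X, or 2.43 on the log2 scale (adjusted p = 1.4e-09 from limma). LTBP3 went from 8.48 and 8.85 to 38.0 and 38.5 FPKM, and LTBP4 from 7.18 and 7.74 to 32.3 and 34.3, each with a log2 fold change of 2.02. LTBP2 did not pass the filter and was at 0.868 and 0.761 FPKM on TCP and 0.581 and 0.444 on polymer X.

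LOX, the lysyl oxidase that cross-links elastin and collagen, rose from 14.1 and 13.4 to 52.6 and 53.7 FPKM, a log2 fold change of 1.88 (adjusted p = 6.1e-09 from limma). LOXL1 had a log2 fold change of 0.67 and LOXL2, the most abundant of this list at 172 and 177 FPKM on TCP, one of 0.051. ADAMTSL4, which binds fibrillin-1 microfibrils, rose by 1.33 and ADAMTSL3 fell by 1.26 on the log2 scale. MFAP2, the closest relative of MFAP5, was at an FPKM of at most 0.253 in any library, and FBN3 at most 0.069.

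Of 18 genes of fibronectin receptors and assembly, 16 passed the filter. ITGA5, ITGA2B, ITGB8, TGM2 and TNS1 were called higher (31.3%), ITGB1 and FERMT2 were called lower (12.5%), and 9 were not called. The median log2 fold change was 0.30. Over all genes tested, 10.7% were higher and 9.45% lower, with a median of -0.058. The share called higher includes ITGA2B, which passed the filter only through the polymer X libraries. The subunits of the main fibronectin receptor moved in opposite directions. ITGA5 had an FPKM of 27.8 and 28.5 on TCP and of 79.8 and 84.6 on polymer X, for a log2 fold change of 1.51 ± 0.056 (SE) with a limma adjusted p of 1.8e-08. ITGB1, the β1 subunit shared by many integrins, had an FPKM of 331 and 329 on TCP and of 136 and 125 on polymer X, for a log2 fold change of -1.33 ± 0.063 (SE) with a limma adjusted p of 7.7e-08. Under quantile normalization ITGB1 kept its sign but lost its call, at -0.97. FPKM of ITGB1 stayed above that of ITGA5 in all 4 libraries.

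ITGB8, whose integrin binds latent TGF-β, rose by 1.70, TGM2, a transglutaminase that cross-links fibronectin, by 1.53, and TNS1, a tensin of fibrillar adhesions, by 1.42 on the log2 scale. ITGA2B, the platelet fibrinogen receptor subunit, had an FPKM of 0.621 and 0.452 on TCP and of 2.72 and 3.00 on polymer X, or 1.33 on the log2 scale. It lost its call under quantile normalization, at 0.94, and its limma adjusted p was 0.0050 with no filter on low values. FERMT2, the kindlin-2 adaptor that activates integrins, went from 39.5 and 40.0 to 20.0 and 18.2 FPKM, a log2 fold change of -1.02. Its call was lost at -0.96 without polymer X replicate 2, -0.78 under quantile normalization and -0.98 with a common median. ITGAV, ITGA4, ITGB3, ITGB5, ITGB6, SDC2, SDC4, TNS3 and ILK were not called, with log2 fold changes from -0.97 (ITGB6) to 0.93 (ITGB3).

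**Figure D4:**
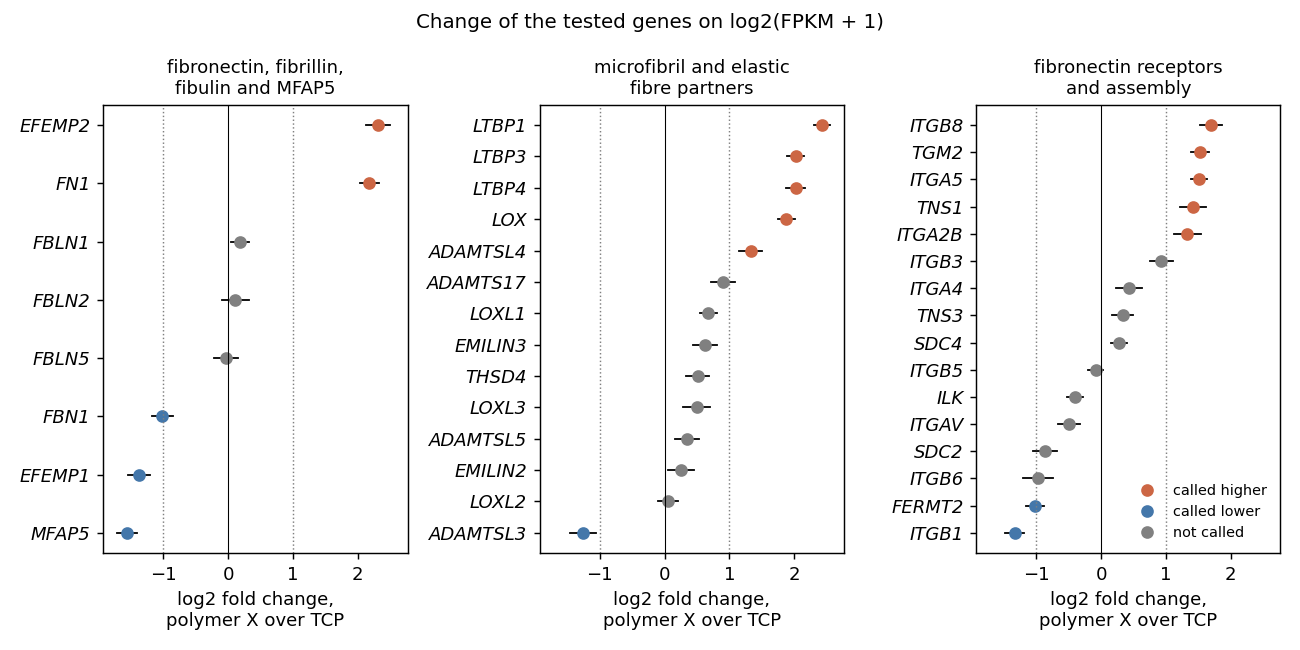
Log2 fold change, polymer X over TCP on log2(FPKM + 1), of the tested genes of the 3 groups, with 95% intervals from limma as lines, genes called higher in orange, genes called lower in blue and genes not called in grey. Dotted lines mark a change of 1 in either direction. FN1 and EFEMP2 stand with LTBP1, LOX and ITGA5 on the right, and MFAP5, EFEMP1, FBN1 and ITGB1 on the left.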

How the data were processed

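RNA-seq of SKOV3 cells was analysed in 4 libraries. Per the file headers, the authors counted tags on the exons of hg19 RefSeq transcripts with HOMER on both strands and deposited FPKM rounded to 3 decimals. The submitters' processing notes also name STAR 2.4.0 and DESeq. Read trimming is not given in the sources used here.

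Tags per library were recovered from the smallest steps between values, with 100% of the low values used within 0.1 of a whole number. Genes that had an FPKM of 1 or more in 2 or more libraries were tested on log2(FPKM + 1). The tool was limma (version 3.58.1, under R 4.3.3) using a variance trend and Benjamini-Hochberg adjustment over all genes tested. Segments of FN1 were found from GENCODE 29 exons, and their tags are differences between rows. Intervals of tags cover counting error only. Plots were drawn with matplotlib 3.10.9.

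The members and lists were chosen with earlier results of these data known. Named are all members, every called gene of the lists, ITGA5 and ITGB1, and the 3 genes nearest to FN1. Others, such as LTBP2, LOXL1, LOXL2, MFAP2 and FBN3, were named after their values were seen. Alternatives were a pseudocount of 0.1, other filters, scalings and variance models, summed transcripts, a replicate block, no fold change minimum and each library left out.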

Additional observations from a re-analysis of the deposited data

How the results depend on the processing

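Among the 10 genes, 2 were called higher and 3 lower under the replicate block, which left the counts of every list as they were. Libraries with the same number hardly deviated together from their group means (correlation 0.093), so no pairing was assumed. The calls of FN1, EFEMP1 and MFAP5 held under all 12 alternatives and that of EFEMP2 under the 11 that could test it. When genes needed a mean FPKM of 5 or more, 8166 genes were tested, of which 702 were higher and 960 lower. Only 5 of the 10 genes were tested there, with 1 higher and 3 lower. Of 7 elastic fibre partners tested, 4 were higher and 0 lower. Of 10 receptor and assembly genes tested, 2 were higher and 2 lower. EFEMP2, ADAMTSL3, ADAMTSL4, ITGA2B, ITGB8 and TNS1 were not tested under this filter. With no fold change minimum, 37.4% of all genes tested were higher and 43.6% lower. Of the 8 tested genes of this group, 3 were higher and 3 lower. Of 14 elastic fibre partners tested, 12 were higher and 1 lower, and of 16 receptor and assembly genes tested, 9 and 6. The counts of higher genes include EFEMP2, ADAMTS17 and ITGA2B, which passed the filter only through the polymer X libraries. Of the receptor and assembly genes, 1 was lower with a common median (ITGB1) and 1 under quantile normalization. The latter was ITGB6 (-1.35), while neither ITGB1 nor FERMT2 was called there, and 4 were higher, without ITGA2B. ITGB6 was also called lower with summed transcripts (-1.36). With a pseudocount of 0.1, 1837 of all 11964 genes tested were higher and 1413 lower. There 6 elastic fibre partners were higher, with ADAMTS17 (1.64) added, and 1 was lower. Of the receptor and assembly genes 6 were higher, with ITGB3 (1.37) added, and 3 lower, with ITGB6 (-1.40) added. The log2 fold change of FBLN2 changed sign under quantile normalization (-0.16) and that of FBLN5 with a common median (0.0036), where neither was called. The cause was not tested.

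Leaving out 1 library at a time, the lone library of a group was assumed to vary like the other group. Receptor and assembly genes called lower numbered 1 to 3 (1 without polymer X replicate 2), and FBLN5 ranged from -0.10 to 0.038, positive without TCP replicate 2 (0.024) and without polymer X replicate 1 (0.038). Depth limits ELN, with at most 8 tags in a library, and FBN2.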
